A study of Mus musculus with 18 samples.

Results

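The 10 genes described here encode the core of the MHC class I antigen presentation pathway: the classical heavy chains H2-K1 and H2-D1, the light chain B2m, the peptide transporter subunits Tap1 and Tap2, the loading factor Tapbp, the class I transactivator Nlrc5, and the inducible proteasome subunits Psmb8, Psmb9 and Psmb10. They were taken from the gene count table by symbol, and all 10 of them were found among its 16314 genes. All 10 also passed the filter on low counts, which left 12021 genes to test.

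MHC class I molecules display peptides cut from proteins of the cell itself, so that CD8 T cells can inspect what a cell is making. The peptides are cut by the proteasome, carried into the endoplasmic reticulum (ER) by the Tap1 and Tap2 transporter and bound to a heavy chain that is paired with B2m. Under interferon, cells exchange the standard catalytic proteasome subunits for inducible ones, which forms the immunoproteasome, and the class I genes rise with them. Macrophages carry these genes at rest and raise them when they sense bacteria.

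Prolyl endopeptidase (Prep), the enzyme deleted in the study, is a serine peptidase that cuts short peptides after proline. Bone marrow derived macrophages (BMDMs) were grown from femoral marrow of C57BL6/J-background Prep-/- mice and of Prep+/- littermates over 7 days of culture in M-CSF at 50 ng/ml. Libraries were made from BMDMs without further stimulation (M0, stimulation listed as 0 h), after 24 h with 50 ng/ml LPS (M1), and after 24 h with IL-4 and IL-13 at 20 ng/ml each (M2). LPS is a component of the bacterial wall, while IL-4 and IL-13 are cytokines of type 2 immunity. Each of the 6 groups held 3 libraries, 18 in all. Every control animal was heterozygous and had itself lost 1 Prep allele, so that each genotype comparison sets no functional allele against 1. No Prep+/+ library was analysed here. How the allele was made, the age and sex of the marrow donors and whether the 3 libraries of a group came from separate animals are not given in the sources used here, and the p-values measure only the spread between these libraries.

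The libraries held 19068237 to 22598279 counts. Levels are given as CPM, which are counts scaled to a common library size with TMM factors, with the 3 libraries of a group in the order of their replicate numbers. A gene was called when edgeR's quasi-likelihood test gave an adjusted p below 0.05 over all 12021 genes and the fold change was above 1.5. Prep itself lay at 26.0 to 42.5 CPM in the Prep+/- libraries and at 1.48 to 3.22 CPM in the Prep-/- libraries, as the labels say. Sums of 7 macrophage markers were 18733–22167 CPM in Prep+/- and 29989–47592 CPM in Prep-/- libraries in M0, 44529–45873 and 30443–36405 CPM in M1, and 9958–12159.6 and 13817–19505 CPM in M2. Most of each sum was Lyz2. In M1 Lyz2 was at 34403–36628 CPM in Prep+/- and 20392–26197 CPM in Prep-/-. Cd68 (855–1009 and 1096–1477 CPM) and Mertk (27.9–45.7 and 73.4–102 CPM) went the other way there. Adgre1, Csf1r, Itgam and Fcgr1 overlapped between the genotypes in M1. Of 8 T and NK cell markers 2 were in the table, and their sum was 0.866–0.962 CPM in Prep+/- M0 and 8.07–29.9 CPM in Prep-/- M0, nearly all of it Cd4. Of 5 B cell markers 3 were in the table, with sums of 3.01–4.79 and 8.66–11.5 CPM in the same groups. Cd79a, which defines B cells, stayed at or below 0.168 CPM, and Klrb1c of NK cells at or below 0.237 CPM. Sums of 7 granulocyte precursor markers were 15.5–23.7 CPM in Prep+/- and 33.3–74.1 CPM in Prep-/- in M0, and 56.8–108 and 35.0–47.7 CPM in M1. Nearly all of these sums was S100a8 and S100a9, and the highest value of the other markers was 1.23 CPM (Prtn3). Sums of 6 dendritic cell markers were 0.200–0.501 CPM in Prep+/- and 0.969–1.47 CPM in Prep-/- in M0. The part of these levels in the results was not tested. In bulk RNA, fewer cells of a type and less RNA per cell cannot be told apart. Prep-/- M0 replicate 3 and Prep-/- M2 replicate 3 stood apart from the other libraries of their groups (chi-square per degree of freedom of 105 to 114 in the 4 pairs that hold them, and 9.26 to 46.3 in the other 14 pairs). Member calls, list counts and some of the named results that changed without them are given below both ways.

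Most of the genes lie in the MHC region. On GRCm39, Psmb9 (17:34400960-34406738, minus strand), Tap1 (17:34405996-34416199, plus strand), Psmb8 (17:34416690-34420428, plus strand) and Tap2 (17:34422501-34435829, plus strand) follow one another within 34.9 kb, and the spans of Psmb9 and Tap1 overlap by 743 bases on opposite strands. Tapbp lies at 17:34134873-34148267, H2-K1 at 17:34214987-34219321 and H2-D1 at 17:35481691-35486475. The other 3 genes lie on other parts of the genome, B2m at 2:121977957-121983594, Nlrc5 at 8:95160984-95253900 and Psmb10 at 8:106662362-106665077. Since the use of strand and of reads that map to several places is not given in the sources used here, the levels of some members are uncertain. H2-K1 and H2-D1 transcripts are 90.1% identical over 1488 bases and each matches H2-Q4, H2-T22 and H2-T23 at 90% or more, and reads from the shared ends of Psmb9 and Tap1 could be counted for either.

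The promoters of the class I genes show how alike the 2 heavy chain genes are and which members match a fixed spelling of NF-kappaB or interferon factor motifs. The sequences are from RefSeq (GRCm38.p6, 250 bases before to 50 after the start), which held windows for 8 of the 10 members, and not for Tap2 and Nlrc5. Capitals mark matches to the kappaB motif and to the interferon-stimulated response element, GAAANNGAAA, each searched on both strands.
H2-K1 (chr17:34000298-34000597, minus strand): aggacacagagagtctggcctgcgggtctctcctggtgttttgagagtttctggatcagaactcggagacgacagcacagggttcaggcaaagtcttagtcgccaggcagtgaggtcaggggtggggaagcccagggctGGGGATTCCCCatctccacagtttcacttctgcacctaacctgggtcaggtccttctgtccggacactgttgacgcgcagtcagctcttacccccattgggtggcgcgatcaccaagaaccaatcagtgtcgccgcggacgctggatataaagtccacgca
H2-D1 (chr17:35262844-35263143, plus strand): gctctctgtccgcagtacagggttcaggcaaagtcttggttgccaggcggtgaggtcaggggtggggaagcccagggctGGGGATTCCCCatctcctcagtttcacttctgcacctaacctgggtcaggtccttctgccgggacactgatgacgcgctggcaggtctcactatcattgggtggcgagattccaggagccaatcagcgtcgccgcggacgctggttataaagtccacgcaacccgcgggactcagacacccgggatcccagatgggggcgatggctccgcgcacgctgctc
B2m (chr2:122147437-122147736, plus strand): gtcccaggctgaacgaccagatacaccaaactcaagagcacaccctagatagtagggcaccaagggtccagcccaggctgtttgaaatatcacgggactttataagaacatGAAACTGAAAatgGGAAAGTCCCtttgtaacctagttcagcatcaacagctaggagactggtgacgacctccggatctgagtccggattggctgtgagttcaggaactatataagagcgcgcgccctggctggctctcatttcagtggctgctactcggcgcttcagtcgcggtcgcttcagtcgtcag
Tap1 (chr17:34187306-34187605, plus strand): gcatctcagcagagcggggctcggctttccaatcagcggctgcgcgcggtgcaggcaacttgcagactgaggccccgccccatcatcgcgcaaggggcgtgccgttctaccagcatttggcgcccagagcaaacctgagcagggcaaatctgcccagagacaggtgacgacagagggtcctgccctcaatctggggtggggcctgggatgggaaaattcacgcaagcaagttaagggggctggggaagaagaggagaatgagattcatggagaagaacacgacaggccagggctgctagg
H2-K1 and H2-D1 hold the same kappaB letters, at -111 and -171 from the start (matches on the 2 strands overlap), and their windows are identical at 211 of 239 aligned bases. B2m holds a kappaB match at -126 3 bases after the end of a response element that starts at -139. The kappaB motif was present in 3 of the 8 members with a window and in 8.46% of all 32851 windows. An exact match to the letters GAAANNGAAA was found in B2m alone of the 8 and in 3.44% of all windows. Response elements that differ from these letters were not searched for, so the other windows may hold such elements. Another motif, TTCNNNGAA, known as GAS, was found in Psmb8 alone, at -97, and in 8.3% of all windows. The Tap1 window shares 275 bases with that of Psmb9, since the annotated starts are 226 bases apart on opposite strands, and it holds none of the 3 motifs. These matches describe letters in a window and not bound sites.

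Per length of transcript, B2m was the most abundant member in all 6 groups. Its mean level was 932 ± 56.4 RPKM (CPM divided by transcript length in kilobases, SD, n = 3) in Prep+/- M0 and 2297 ± 347 RPKM in Prep-/- M0. In M1 it stood at 4059 ± 341 RPKM in Prep+/- and 4374 ± 485 RPKM in Prep-/-. The heavy chains came next, at 598 ± 40.2 RPKM for H2-D1 and 411 ± 52.7 RPKM for H2-K1 in Prep+/- M0. Their libraries did not overlap in M0 and M2 but did in M1 of either genotype. Tapbp followed at 78.8 ± 7.88 RPKM, with libraries that overlapped those of Psmb8 at 76.7 ± 9.08 RPKM in Prep+/- M0. In M2, Psmb10 took the fourth place, at 129.7 ± 17.6 RPKM in Prep+/- and 231 ± 57.0 RPKM in Prep-/-, where it overlapped Tapbp. Psmb9, Tap1 and Tap2 lay lower in M0, at 28.9 ± 4.13, 17.9 ± 0.630 and 15.0 ± 1.33 RPKM in Prep+/-. In Prep-/- M0 the libraries of each neighbour from Psmb10 down to Tap2 overlapped. Nlrc5 was lowest in each group, from 1.97 ± 0.0794 RPKM in Prep+/- M2 to 14.1 ± 2.57 RPKM in Prep-/- M1.

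**Figure D1:**
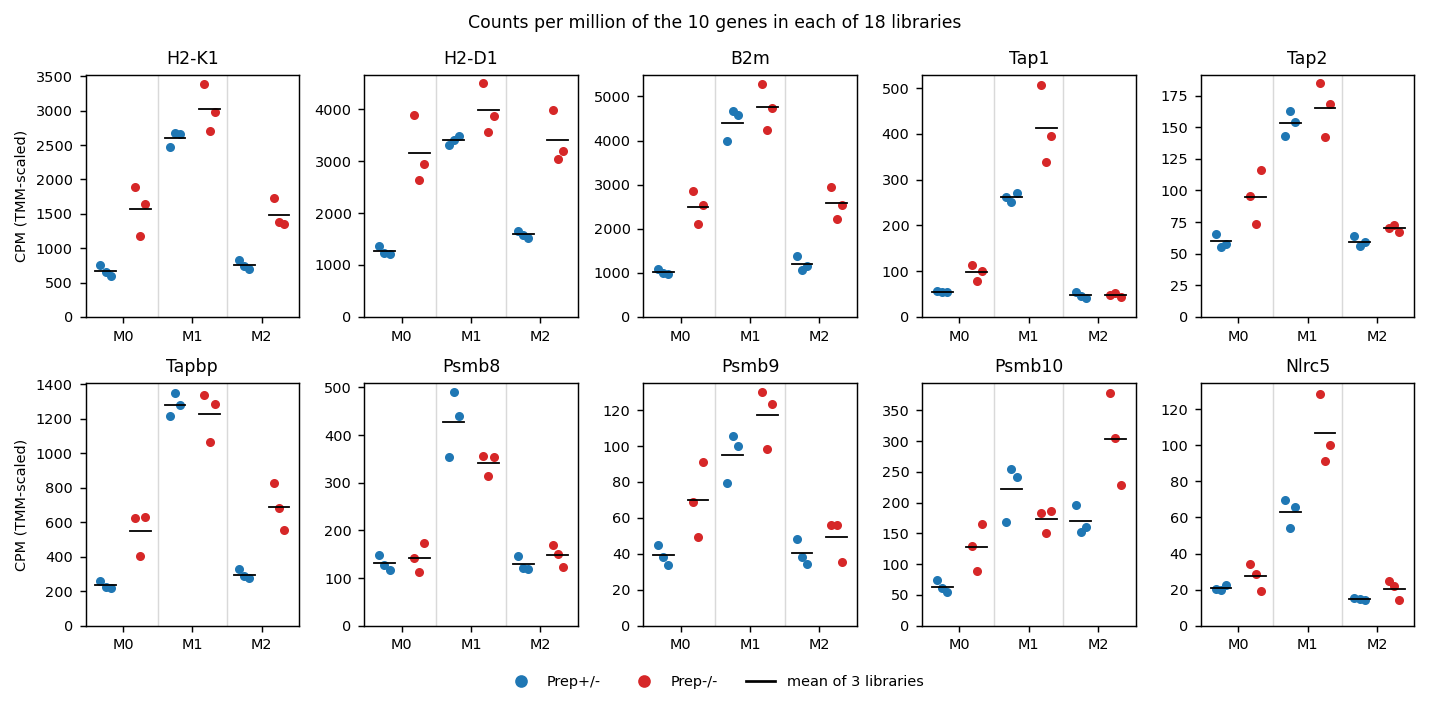
Level of each of the 10 genes in CPM (linear axis from 0) in the 18 libraries, by state, with Prep+/- in blue, Prep-/- in red and the group mean as a black line. H2-K1, H2-D1, B2m and Tapbp of Prep-/- libraries lie above those of Prep+/- libraries in M0 and M2, and all 10 genes of Prep+/- libraries are higher in M1 than in M0.

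The first comparison asked what loss of Prep does to these genes in unstimulated macrophages. Of the 10 members, 8 were higher in Prep-/- than in Prep+/- M0 BMDMs and 0 were lower, where 15.4% of all genes tested were called higher and 17.2% lower. The median log2 fold change of the members was 0.93, and 0.02 over all genes. In the 8 called members all 3 Prep-/- libraries lay above all 3 Prep+/- libraries. Such separation is likely in genes called on the same libraries, and its share over all genes is not given here. At an unadjusted p below 0.05 0 members were lower in M0, M1 or M2, and DESeq2 called the same numbers of members in each of the comparisons between groups.

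H2-K1, a heavy chain that holds the peptide, stood at 757, 652 and 589 CPM in the Prep+/- M0 libraries and at 1887, 1172 and 1643 CPM in Prep-/- M0. It was 2.35-fold higher in Prep-/- (log2 fold change 1.23 ± 0.16 (SE), adjusted p = 2.02e-05). H2-D1, the other classical heavy chain, stood at 1364, 1224 and 1211 CPM in Prep+/- and at 3879, 2631 and 2946 CPM in Prep-/- libraries. This was a 2.49-fold rise (log2 fold change 1.32 ± 0.15 (SE), adjusted p = 4.54e-06). B2m, the light chain that pairs with the heavy chain, stood at 1082, 990.4 and 966 CPM in Prep+/- and at 2849.6, 2098 and 2535 CPM in Prep-/- libraries. It rose 2.46-fold (log2 fold change 1.30 ± 0.15 (SE), adjusted p = 5.58e-06). The lowest Prep-/- library of these 3 genes was replicate 2 in each case, and it was still above every Prep+/- library.

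Tapbp (tapasin), which holds the empty class I molecule at the transporter, stood at 261, 227 and 216 CPM in Prep+/- M0 and at 622, 404 and 628 CPM in Prep-/- M0. It was 2.35-fold higher in Prep-/- (log2 fold change 1.23 ± 0.17 (SE), adjusted p = 3.05e-05), much as the heavy chains were. The transporter subunits had smaller fold changes, and the difference between genes was not tested. Tap1 went from 57.6, 53.7 and 55.1 CPM in Prep+/- to 113, 79.2 and 100.4 CPM in Prep-/- libraries (log2 fold change 0.82 ± 0.15 (SE), adjusted p = 0.000407). Tap2, its partner, went from 65.7, 55.6 and 57.9 CPM to 95.6, 73.1 and 116 CPM (log2 fold change 0.67 ± 0.14 (SE), adjusted p = 0.000935). Tap2 was 1.59-fold higher and so just above the fold minimum. Without Prep-/- M0 replicate 3 its log2 fold change was 0.50 and it was no longer called.

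Of the inducible proteasome subunits 2 of 3 rose in M0. Psmb10, which takes the place of Psmb7, stood at 74.8, 60.6 and 54.7 CPM in Prep+/- and at 129.9, 88.8 and 166 CPM in Prep-/- libraries (log2 fold change 1.02 ± 0.22 (SE), adjusted p = 0.00145). Psmb9, which takes the place of Psmb6, stood at 45.0, 38.3 and 33.9 CPM and 69.0, 49.1 and 91.0 CPM (log2 fold change 0.83 ± 0.22 (SE), adjusted p = 0.00488). For both genes Prep-/- replicate 3, a library that stood apart, was the highest. Tested against a fold of 1.5 with glmTreat, neither Psmb9 (adjusted p = 0.187) nor Psmb10 (0.0560) was called, and neither were Tap1 (0.109) and Tap2 (0.382). Psmb8, which takes the place of Psmb5, overlapped between the genotypes, with 147, 127 and 117 CPM in Prep+/- and 141, 112 and 174 CPM in Prep-/- libraries (log2 fold change 0.13 ± 0.16 (SE), adjusted p = 0.543). Nlrc5, which binds class I promoters with the RFX and NF-Y factors, was at 20.5, 20.0 and 22.3 CPM and 34.1, 28.5 and 19.2 CPM and was not called (log2 fold change 0.38 ± 0.20 (SE), adjusted p = 0.132). Its Prep-/- replicate 3 lay below all 3 Prep+/- libraries, while the other Prep-/- libraries lay above them. Without the libraries that stood apart 7 members were called higher, and Nlrc5 had a log2 fold change of 0.58 with an adjusted p of 0.0025, below the fold minimum. Over all genes 2061 were then called higher and 2307 lower.

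**Figure D2:**
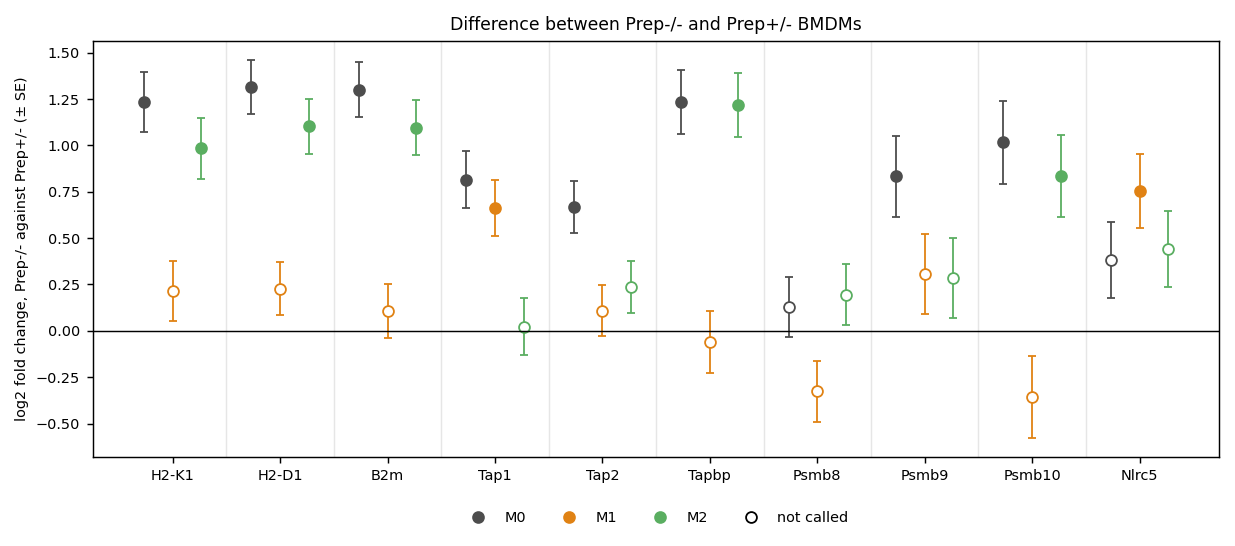
Log2 fold change of the 10 genes in Prep-/- against Prep+/- BMDMs in M0, M1 and M2, with the standard error as bars and filled points for called genes. In M0 8 genes are called, in M1 only Tap1 and Nlrc5, and in M2 H2-K1, H2-D1, B2m, Tapbp and Psmb10.

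After LPS fewer members were called between the genotypes. Of the 10 members 2 were higher in Prep-/- than in Prep+/- M1 BMDMs and 0 were lower, against 12.3% of all genes called higher and 10.2% lower. The median log2 fold change of the members was 0.16, and 0.04 over all genes. The members that rose were the transporter subunit Tap1 and the transactivator Nlrc5. Tap1 stood at 263, 251 and 271 CPM in Prep+/- M1 and at 506, 338 and 396 CPM in Prep-/- M1, without overlap (log2 fold change 0.66 ± 0.15 (SE), adjusted p = 0.0036). Nlrc5 stood at 69.7, 54.1 and 66.0 CPM and 129, 91.4 and 100.2 CPM, also without overlap (log2 fold change 0.75 ± 0.20 (SE), adjusted p = 0.00833). Prep-/- replicate 1 was the highest library for either gene. Without it Tap1 had a log2 fold change of 0.49 and Nlrc5 one of 0.60, and neither was called. Against a fold of 1.5 with glmTreat neither was called with all libraries either (adjusted p = 0.609 and 0.429).

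The genes of the class I molecule itself were not called between the genotypes in M1. H2-K1 lay at 2479, 2682 and 2657 CPM in Prep+/- and at 3387, 2702 and 2979.7 CPM in Prep-/- libraries (log2 fold change 0.21 ± 0.16 (SE), adjusted p = 0.309). H2-D1 lay at 3307, 3415 and 3479 CPM and 4504, 3560.2 and 3877 CPM (log2 fold change 0.23 ± 0.14 (SE), adjusted p = 0.227). Both heavy chains thus had every Prep-/- library above every Prep+/- library, by less than the test required. B2m overlapped, with 3983, 4660.2 and 4580.4 CPM in Prep+/- and 5281, 4229 and 4739.5 CPM in Prep-/- (log2 fold change 0.11 ± 0.15 (SE), adjusted p = 0.586). Tapbp overlapped as well, at 1217, 1349.6 and 1278 CPM and 1339, 1063 and 1286 CPM (log2 fold change -0.06 ± 0.17 (SE), adjusted p = 0.804). Tap2 was at 143, 162 and 154 CPM and 185, 142 and 169 CPM (log2 fold change 0.11 ± 0.14 (SE), adjusted p = 0.558), again with overlap.

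None of the inducible subunits was called between the genotypes in M1. Psmb8 was at 354, 489.7 and 439.5 CPM in Prep+/- and at 356, 314 and 353 CPM in Prep-/- libraries (log2 fold change -0.33 ± 0.16 (SE), adjusted p = 0.128). Psmb10 was at 169, 254 and 242 CPM and 183, 151 and 186 CPM (log2 fold change -0.36 ± 0.22 (SE), adjusted p = 0.218). In both genes Prep+/- replicate 1 was lower than the other Prep+/- libraries and lay among the Prep-/- libraries. Psmb9 was at 79.3, 106 and 100.1 CPM and 130.1, 98.4 and 124 CPM, with overlap (log2 fold change 0.31 ± 0.22 (SE), adjusted p = 0.278).

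In IL-4 and IL-13 treated BMDMs, transcripts of the class I molecule were again higher without Prep. Of the 10 members 5 were higher in Prep-/- than in Prep+/- M2 BMDMs and 0 were lower, against 6.37% of all genes called higher and 9.82% lower. The median log2 fold change of the members was 0.64, and 0.03 over all genes. H2-K1 stood at 823, 742 and 695 CPM in Prep+/- M2 and at 1732, 1385 and 1353 CPM in Prep-/- M2 (log2 fold change 0.98 ± 0.16 (SE), adjusted p = 0.00037). H2-D1 stood at 1657, 1587 and 1520.3 CPM and 3976, 3047 and 3203 CPM (log2 fold change 1.10 ± 0.15 (SE), adjusted p = 6.91e-05). B2m stood at 1389, 1067 and 1162 CPM and 2957, 2222 and 2548 CPM (log2 fold change 1.09 ± 0.15 (SE), adjusted p = 7.97e-05). In all 3 genes the Prep-/- libraries lay wholly above the Prep+/- libraries, about 2-fold (1.98, 2.15 and 2.14). Tapbp was at 326, 286 and 275 CPM and 830.2, 683 and 553 CPM (log2 fold change 1.22 ± 0.17 (SE), adjusted p = 0.000107). Psmb10 was at 196, 153 and 161 CPM and 378, 305 and 229 CPM (log2 fold change 0.84 ± 0.22 (SE), adjusted p = 0.0115). Neither gene overlapped between genotypes, and the lowest Prep-/- library of both was replicate 3, which stood apart.

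The transporter and the other inducible subunits did not pass the test in M2. Tap1 was at 54.6, 46.2 and 41.2 CPM in Prep+/- and at 48.7, 53.1 and 42.5 CPM in Prep-/- libraries (log2 fold change 0.02 ± 0.15 (SE), adjusted p = 0.936). Tap2 was at 63.7, 56.0 and 59.0 CPM and 70.4, 72.8 and 67.3 CPM, without overlap (log2 fold change 0.24 ± 0.14 (SE), adjusted p = 0.234). The Prep-/- libraries of Tap2 were thus all higher, by a margin the test did not call. Psmb8 was at 146, 122 and 119.5 CPM and 170.2, 149 and 124 CPM (log2 fold change 0.19 ± 0.16 (SE), adjusted p = 0.424). Psmb9 was at 48.3, 38.2 and 34.6 CPM and 55.8, 56.2 and 35.6 CPM (log2 fold change 0.28 ± 0.22 (SE), adjusted p = 0.369). Nlrc5 was at 15.6, 14.7 and 14.4 CPM and 24.6, 21.9 and 14.2 CPM (log2 fold change 0.44 ± 0.21 (SE), adjusted p = 0.132), and in these 3 genes Prep-/- replicate 3 lay within or below the Prep+/- libraries. Without both libraries that stood apart 6 members were called higher, Nlrc5 (0.64) among them, and leaving out Prep-/- M2 replicate 3 alone gave Nlrc5 0.64 as well. Over all genes 1054 were called higher and 1724 lower without both. The call of Psmb10 was lost without Prep-/- M2 replicate 1 (0.65, adjusted p = 0.0733), Prep+/- M2 replicate 2 (0.74, adjusted p = 0.0587) or Prep+/- M2 replicate 3 (0.78, adjusted p = 0.0519), and with glmTreat against a fold of 1.5 (adjusted p = 0.378).

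The response to LPS was then compared within each genotype. In Prep+/- BMDMs all 10 members were higher in M1 than in M0, where 16.7% of all genes were called higher and 20.9% lower. Their median log2 fold change was 1.76, and -0.03 over all genes. Tapbp (2.45 ± 0.18, SE), Tap1 (2.24 ± 0.16) and B2m (2.12 ± 0.15) had the largest log2 fold changes of the 10. H2-K1 rose by 1.97 ± 0.17, Psmb10 by 1.81 ± 0.23, Psmb8 by 1.71 ± 0.17 and Nlrc5 by 1.60 ± 0.21 on the same scale. H2-D1 (1.43 ± 0.15), Tap2 (1.36 ± 0.14) and Psmb9 (1.28 ± 0.22) had the smallest. For every member, all 3 M1 libraries lay above all 3 M0 libraries, and the share of all genes so separated is not given here.

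In Prep-/- BMDMs 8 members were higher in M1 than in M0 and 0 were lower, where 20.9% of all genes were called higher and 21.0% lower. The median of the members was 0.94, and 0.00 over all genes. Tap1 (2.08 ± 0.16) and Nlrc5 (1.97 ± 0.21) had the largest log2 fold changes, followed by Psmb8 (1.26 ± 0.17) and Tapbp (1.16 ± 0.17). H2-K1 (0.95 ± 0.16), B2m (0.93 ± 0.15), Tap2 (0.80 ± 0.14) and Psmb9 (0.75 ± 0.22) rose by 1 log2 unit or less. H2-D1 (0.34 ± 0.14, adjusted p = 0.0565) and Psmb10 (0.44 ± 0.22, adjusted p = 0.104) were not called. Without Prep-/- M0 replicate 3 Psmb10 was called, at 0.67, and without Prep-/- M0 replicate 2 Psmb9 was at 0.56 and was not. With glmTreat Tap2 (adjusted p = 0.0696) and Psmb9 (0.234) were not called.

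**Figure D3:**
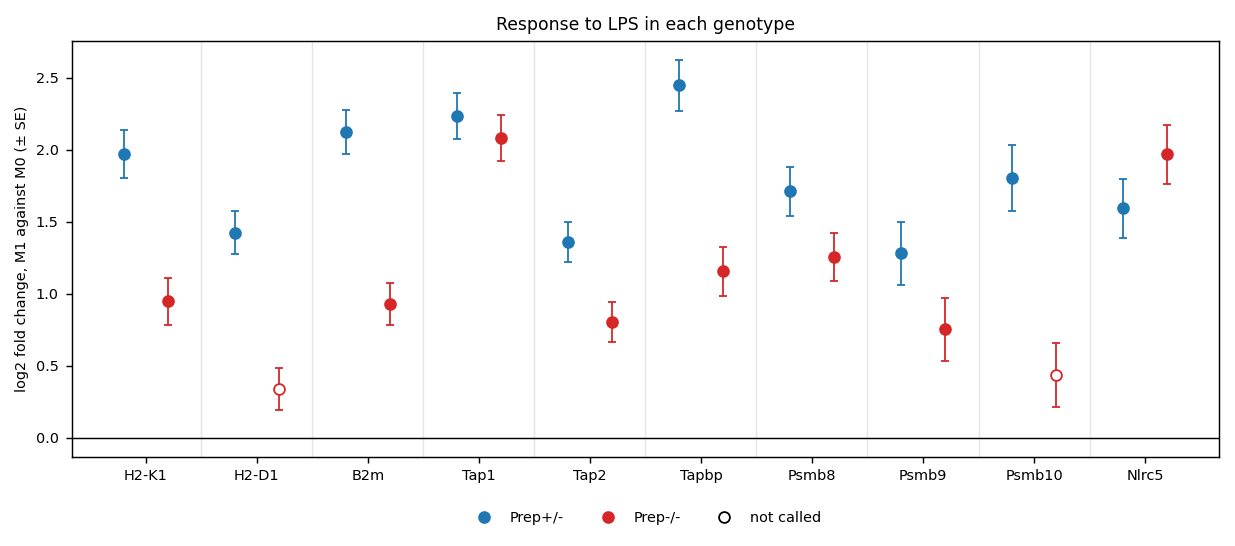
Log2 fold change of the 10 genes in M1 against M0, with the standard error as bars, in Prep+/- (blue) and Prep-/- (red) BMDMs, open where not called. The Prep-/- value is lower for 9 of the 10 genes, and Nlrc5 is the exception.

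The difference between the 2 LPS responses was tested as an interaction, with an adjusted p below 0.05 as the call. Of the 10 members, 6 had a smaller log2 response in Prep-/- and 0 a larger one, where 13.7% of all genes were called larger and 10.9% smaller. The median difference, Prep-/- minus Prep+/-, was -0.79, and 0.04 over all genes. Psmb10 (difference of log2 fold changes -1.37 ± 0.31 (SE), adjusted p = 0.00545), Tapbp (-1.29 ± 0.24, adjusted p = 0.00128) and B2m (-1.19 ± 0.21, adjusted p = 0.000804) differed most. H2-D1 (-1.09 ± 0.20, adjusted p = 0.00142) and H2-K1 (-1.02 ± 0.23, adjusted p = 0.00461) differed by a similar margin, and Tap2 by less (-0.56 ± 0.20, adjusted p = 0.0471). Tap1 (-0.15 ± 0.21), Psmb8 (-0.46 ± 0.23), Psmb9 (-0.53 ± 0.31) and Nlrc5 (0.37 ± 0.28) were not called. These differences use the same M0 and M1 libraries as the genotype comparisons above and are not independent of them. Without the libraries that stood apart 5 members were called smaller, and Tap2 was at -0.39 with an adjusted p of 0.0879. Over all genes 1696 were then called smaller and 2164 larger. The call of Tap2 was also lost on leaving out any 1 of 8 libraries (Prep-/- M0 replicates 1 and 3, Prep-/- M1 replicates 2 and 3, and replicates 2 and 3 of Prep+/- M0 and of Prep+/- M1), with adjusted p-values from 0.0714 to 0.116.

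The response to IL-4 and IL-13 was compared in the same way, and the shares of members called were near those of all genes. In Prep+/- BMDMs Psmb10 alone was higher in M2 than in M0 (log2 fold change 1.43 ± 0.23 (SE), adjusted p = 0.000238), and 0 members were lower (1 at an unadjusted p below 0.05), where 6.09% of all genes were called higher and 6.77% lower. In Prep-/- BMDMs 1 member was higher, again Psmb10 (log2 fold change 1.25 ± 0.22 (SE), adjusted p = 0.000288), and 1 was lower, Tap1 (log2 fold change -1.02 ± 0.15 (SE), adjusted p = 5.84e-05), where 14.7% of all genes were called higher and 15.5% lower. The member medians were 0.11 and -0.01. For Psmb10 all 3 M2 libraries lay above all 3 M0 libraries in either genotype. Tap1, at 113, 79.2 and 100.4 CPM in Prep-/- M0, fell to 48.7, 53.1 and 42.5 CPM in Prep-/- M2, within the range of the Prep+/- M2 libraries. Tap2 had a log2 fold change of -0.43 in Prep-/- (adjusted p = 0.018), below the fold minimum. In the test of the difference between genotypes Tap1 alone was called, with a lower response in Prep-/- (-0.79 ± 0.22, adjusted p = 0.0307), where 5.16% of all genes were called larger and 4.48% smaller. Without the libraries that stood apart it was at -0.69 with an adjusted p of 0.0686, and it also lost the call without any 1 of Prep-/- M0 replicate 1, Prep-/- M2 replicate 3, Prep+/- M0 replicates 2 and 3 and Prep+/- M2 replicates 1 and 2 (adjusted p-values from 0.0552 to 0.0887). In Prep-/- M2 against M0, Tap2 (-0.60) and Psmb9 (-0.72) were called without Prep-/- M0 replicate 2, and Nlrc5 without Prep-/- M0 replicate 3 (-0.63) or Prep-/- M2 replicate 1 (-0.59). The genotype difference of Tap2 was called without Prep-/- M0 replicate 2 (-0.59).

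Transcripts of the proteasome subunits were compared as the ratio of each inducible subunit to the one it replaces, both in RPKM, within each library. The exchange of the proteins in the proteasome was not measured. In M0 the ratio of Psmb10 to Psmb7 was 0.389, 0.306 and 0.318 in Prep+/- and 1.08, 0.722 and 1.02 in Prep-/- libraries. The ratio of Psmb9 to Psmb6 was 0.129, 0.122 and 0.125 in Prep+/- and 0.330, 0.241 and 0.248 in Prep-/-. That of Psmb8 to Psmb5 was 0.824, 0.773 and 0.798 in Prep+/- and 1.66, 1.56 and 1.22 in Prep-/-. All 3 ratios were thus higher in Prep-/- M0 without overlap, the one of Psmb8 with Psmb5 lower in Prep-/- (log2 fold change -0.71 ± 0.22 (SE), adjusted p = 0.0157) and Psmb8 not called. In M1 only the ratio of Psmb9 to Psmb6 did not overlap, at 0.168 ± 0.00480 (SD, n = 3) in Prep+/- and 0.242 ± 0.0212 in Prep-/-. In M2 the ratios of Psmb10 to Psmb7 (0.803 ± 0.0738 and 1.83 ± 0.615) and of Psmb8 to Psmb5 (0.627 ± 0.0610 and 1.09 ± 0.364) did not overlap, and Prep-/- replicate 3 was the lowest Prep-/- library of both. Without it the Prep-/- ratios were 1.99 and 2.35 for Psmb10 to Psmb7 and 1.26 and 1.34 for Psmb8 to Psmb5. Those of Psmb9 to Psmb6 were then 0.116 and 0.138, above the 0.0732 to 0.0990 of the Prep+/- M2 libraries. An exact two-sided permutation test of the log2 ratios gave p = 0.1 for these 6 of 9 comparisons, which is the smallest p that 3 libraries against 3 allow, and 0.15 after adjustment over the 9.

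**Figure D4:**
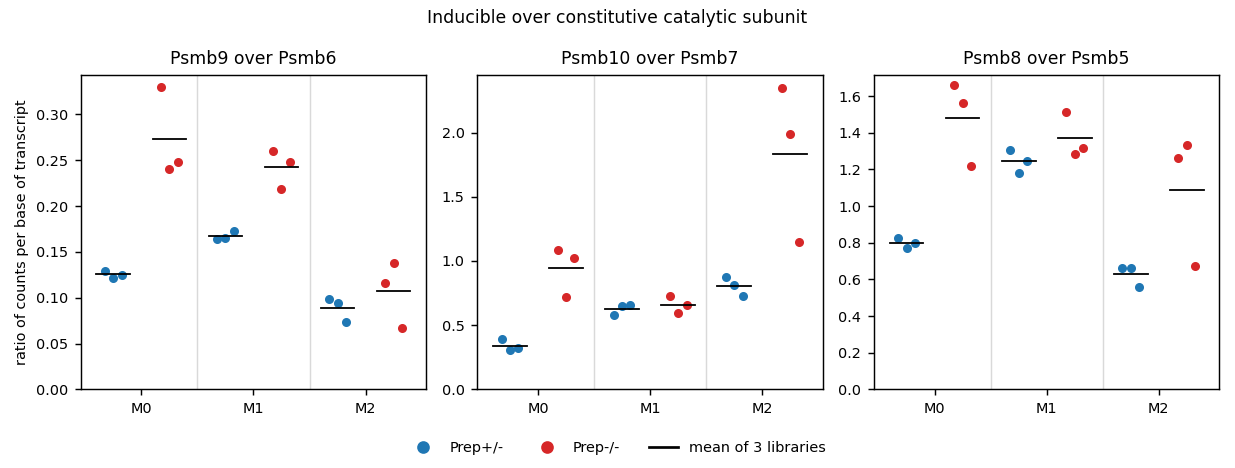
Ratio of each inducible proteasome subunit to the subunit it replaces, both in RPKM, in the 18 libraries by state, Prep+/- in blue and Prep-/- in red. In M0 the Prep-/- libraries lie above the Prep+/- libraries for all 3 ratios.

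Other class I and class I-like genes were mostly higher in Prep-/- M0 as well. Of 18 listed genes 15 were in the table and 13 were tested. Parts of the H2-Q4, H2-Q6, H2-Q7, H2-T22 and H2-T23 transcripts match H2-D1 at 90% identity or more. Reads could be shared between them, so these levels are uncertain and not independent of those of the members. Of the 13, 10 were higher in Prep-/- M0 and 0 were lower (15.4% and 17.2% of all genes). In M1 the counts were 3 higher and 2 lower (12.3% and 10.2% of all genes), and in M2 they were 5 and 1 (6.37% and 9.82%). Their median log2 fold changes were 1.48, 0.51 and 0.49. The calls in M0 include H2-Q6, at or below 3 counts in every M0 library, which was not called without the libraries that stood apart. They also include H2-Q7, at or below 3 counts in every Prep+/- M0 library. With such genes at the bound that 3 counts allow, or left out where both groups were that low, the medians were 1.26, 0.51 and 0.63. Fcgrt, the receptor that spares IgG from breakdown, rose from 87.4 ± 22.6 (SD, n = 3) to 477 ± 102 CPM in M0 (log2 fold change 2.45 ± 0.28 (SE), adjusted p = 5.33e-06). H2-T23, whose product Qa-1 is read by NK cell receptors, had a log2 fold change of 1.72 in M0 and 1.39 in M2, and Hfe, which takes part in iron sensing, one of 1.51 in M0. In M1 Mr1, which presents vitamin B metabolites, rose (1.72), as did H2-Q4 (1.24), while Cd1d1, which presents lipids to NKT cells, fell (-2.13), as did H2-M2 (-1.73). Mr1 (0.92), Fcgrt (0.93) and H2-T24 (0.95) rose in M2, and the libraries of Fcgrt overlapped there.

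Some general chaperones of the ER were lower in Prep-/- M0. Of 11 tested genes of peptide loading and trimming 0 were higher and 4 lower in Prep-/- M0 (15.4% and 17.2% of all genes). In M1 1 was higher and 3 lower (12.3% and 10.2% of all genes), and in M2 1 and 0 (6.37% and 9.82%). The medians were -0.35, -0.38 and 0.08. Calr (calreticulin), which chaperones the heavy chain, stood at 1413, 1378 and 1362 CPM in Prep+/- M0 and at 548, 511 and 668 CPM in Prep-/- M0 (log2 fold change -1.27 ± 0.14 (SE), adjusted p = 3.27e-06). Pdia3, the disulfide isomerase of the loading complex, fell in M0 (-0.66) and in M1 (-0.61), and so did Calr in M1 (-0.75). Erap1, which trims peptides in the ER (-0.61), and Uggt1, which senses misfolded glycoproteins (-0.77), fell in M0. Sec61b, a subunit of the translocon, fell in M1 (-0.85). Tapbpl (TAPBPR), a tapasin relative that edits peptides, rose in M1 (0.76) and M2 (1.12).

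Among 10 tested cytosolic peptidases 1 was higher and 2 lower in Prep-/- M0. In M1 0 were higher and 2 lower, and in M2 0 and 3, with medians of -0.26, -0.07 and 0.02. The M0 shares of the peptidases were near those over all genes (15.4% higher and 17.2% lower). For M1 the shares over all genes were 12.3% higher and 10.2% lower, for M2 6.37% and 9.82%. Peptidases called lower exceeded these shares in either treated state, and so did the proteasome activators and assembly factors. Whether lists of 10 genes differ from all genes was not tested. Thop1, which degrades peptides of class I length, fell in all 3 states (-0.89, -0.99 and -0.65). Ide, the insulin-degrading enzyme, fell in M0 (-1.39) and M2 (-0.59), and the bleomycin hydrolase Blmh in M1 (-0.96) and M2 (-1.10). The aminopeptidase Npepps rose in M0 (0.62). Of the 3 constitutive catalytic subunits Psmb5 alone was called, lower in M0. Of 10 proteasome activators and assembly factors 0 were higher, and 1, 3 and 2 were lower in M0, M1 and M2. The assembly chaperone Psmg2 fell in each state (-1.05, -0.74 and -0.72), Psmg4 (-0.68) and Psmg3 (-0.64) in M1, and Psmg1 (-0.72) in M2. Medians of these factors were 0.11, -0.51 and -0.09, and those of the constitutive subunits were -0.47, -0.42 and -0.31.

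Of 25 tested transcription factors and interferon pathway genes 14 were higher and 1 lower in Prep-/- M0 (15.4% and 17.2% of all genes). In M1 10 were higher and 0 lower (12.3% and 10.2% of all genes), and in M2 4 and 0 (6.37% and 9.82%). The medians were 0.62, 0.43 and 0.30. Ciita, the MHC class II transactivator and a relative of Nlrc5, stood at 0.912, 0.434 and 0.281 CPM in Prep+/- M0 and at 22.8, 13.7 and 5.03 CPM in Prep-/- M0 (log2 fold change 4.69 ± 0.55 (SE), adjusted p = 7.71e-06). In M2 it stood at 3.62, 3.40 and 3.39 CPM and 23.5, 23.8 and 10.6 CPM (log2 fold change 2.47 ± 0.46 (SE), adjusted p = 0.000873). Prep-/- replicate 3, which stood apart, was the lowest Prep-/- library of Ciita in M0 and in M2. Irf1, an interferon-induced factor that drives class I and immunoproteasome genes, was higher in Prep-/- in all 3 states (1.48, 1.44 and 1.16). Irf7 (1.89), which drives type I interferon genes, and Relb (1.44), an NF-kappaB subunit, rose in M0, and Irf8 (0.84) and Relb (0.67) in M2. In M1 Stat2 (1.31), Ifngr1 (1.08), the receptor chain that binds interferon gamma, and Rfx5 (0.95), which holds Nlrc5 and Ciita at promoters, rose. Without the libraries that stood apart the calls in M0 were 10 and 0 for class I genes, 1 and 3 for ER genes, 1 and 2 for peptidases, 0 and 3 for constitutive subunits, 0 and 2 for activators and assembly factors, and 15 and 1 for transcription factors. In M2 they were then 6 and 1, 1 and 0, 1 and 3, 0 and 1, 0 and 2, and 4 and 1 for the same lists. Over all genes the calls were then 2061 and 2307 in M0 and 1054 and 1724 in M2. Of the genes named above, Ciita then had a log2 fold change of 5.09 in M0 and 2.77 in M2, Fcgrt 2.28 and 1.24, Ide -1.32 and -0.90, and Psmb5 and Psmg2 -1.06 and -1.49 in M0. Erap1 in M0 (-0.55) fell below the fold minimum, and the other list genes named with a value in M0 or M2 kept their calls. Where a list had 0 calls in a direction, an unadjusted p below 0.05 was reached by 1 ER gene and 2 activators or assembly factors that were higher in M0, by 2 peptidases and 2 activators that were higher in M1, and by 1 peptidase that was higher in M2. Of the transcription factors 2 in M1 and 1 in M2 were lower by that measure, as were 2 constitutive subunits in M1 and in M2.

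**Figure D5:**
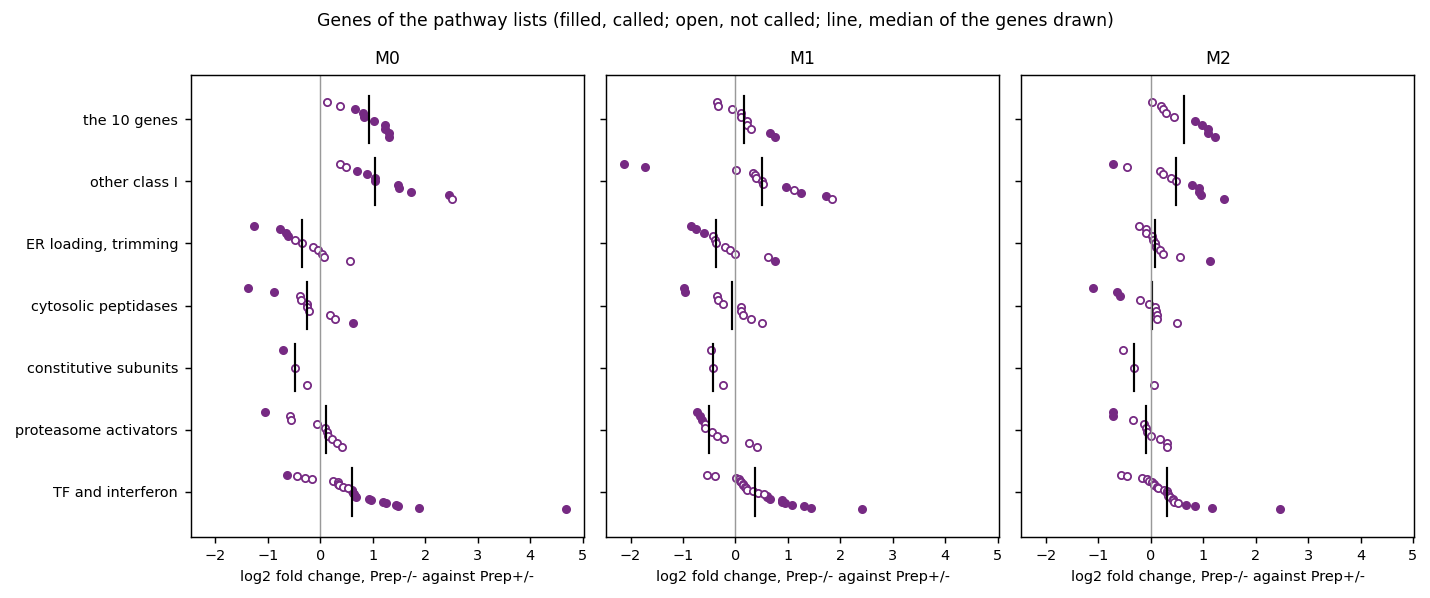
Log2 fold change in Prep-/- against Prep+/- BMDMs of each gene of the 10 members and of 6 pathway lists, in M0, M1 and M2, filled where called, with the median of the genes drawn as a line; genes at or below 3 counts in every library of a group are not drawn. Points of other class I genes and of transcription factors lie mostly above 0 in M0, and those of ER loading and trimming mostly below it.

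Most members varied together across the 18 libraries. Over the 36 pairs without Psmb10, Pearson correlations of log2 CPM were 0.63 to 0.99. They were 0.92 to 0.99 in the 6 pairs among H2-K1, H2-D1, B2m and Tapbp, and as high in other pairs, such as Tap1 with Nlrc5 (0.97), Tap2 with Psmb9 (0.97) and Tap1 with Tap2 (0.97). Psmb10 correlated with the other 9 members at 0.18 to 0.68. Outside the members, the genes most like H2-K1 were Grina (r = 0.99), Gsdmd (0.98) and Il18bp (0.98). Igtp and Parp12 (0.99 each) were among those most like Tap1, and those most like Psmb10 were Phf23 (0.95), Vamp4 (0.94) and Rilpl2 (0.94). Gsdmd encodes gasdermin D, which forms pores in pyroptosis, Il18bp a soluble blocker of IL-18, and Igtp an interferon-induced GTPase. These values describe 18 libraries that share 6 conditions and carry no test.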

How the data were processed

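Gene counts of 18 mouse BMDM libraries were analysed. The deposited values are raw counts per gene, which the authors made by trimming reads with Trimmomatic 0.36 and aligning them with HISAT2 2.2.1.0 to GRCm39, with transcripts assembled and quantified by StringTie2. The annotation release, the strand setting and the handling of reads with several places are not given in the sources used here. All sample columns matched a sample (0 without one).

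Counts were tested with edgeR 4.0.16 (R 4.3.3, filterByExpr over the 6 groups, TMM scaling, 1 coefficient a group over all 18 libraries, quasi-likelihood F test, Benjamini-Hochberg adjustment over 12021 genes). The common biological coefficient of variation was 0.167. Calls needed an adjusted p below 0.05 and a fold change above 1.5, and the differences of responses an adjusted p below 0.05. RPKM used the canonical transcript length of GENCODE on GRCm39. On simulated data for Prep-/- against Prep+/- in M2 (12021 genes, 200 changed) 81% of changes of 1 log2 unit and 98% of changes of 2 were recovered, and 5.29% of calls were not changed genes. In the data more genes were called in that comparison (766 higher and 1181 lower), so these shares need not hold for them. The floor of 3 counts covers counting error only.

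Members and gene lists were chosen with earlier results of these data known. All 10 members are named, and of each list up to 4 called genes per comparison with the largest absolute log2 fold change and a mean of at least 1 CPM, and for H2-K1, Tap1 and Psmb10 the 3 genes with the highest correlation, of which 1 is not reported here. Ratios were compared by exact permutation. Transcripts of the members were compared with blastn 2.17.0 (90% identity or more over at least 300 bases). Figures were drawn with matplotlib 3.10.9.

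Replicate numbers were taken to pair libraries where the deviations of same-numbered libraries correlated at above 0.1 in all 3 pairs, which held for Prep-/- against Prep+/- in M2 (0.249 to 0.462) and for M1 against M0 in Prep-/- (0.169 to 0.259). What the numbers mark is not given in the sources used here. Alternatives were DESeq2 1.42.0, DESeq2-type size factors, no filter, a filter of 10 CPM, only the libraries compared, a replicate block, the adjusted p alone, glmTreat, each library left out, and, chosen after seeing the data, both libraries that stood apart left out.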

Additional observations from a re-analysis of the deposited data

Results flagged for a closer look

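The response to LPS differed between the genotypes, by a test of the interaction in edgeR over all genes, for 6 of the 10 genes, against 10.9% of all genes with a smaller and 13.7% with a larger response in Prep-/-. The difference of log2 fold changes, Prep-/- minus Prep+/-, was -1.02 for H2-K1, -1.09 for H2-D1, -1.19 for B2m, -0.56 for Tap2, -1.29 for Tapbp and -1.37 for Psmb10. In the response to IL-4 and IL-13 the same test gave a difference of -0.79 for Tap1. The calls of Tap2 and Tap1 were lost under several settings. That of Tap2 was lost on leaving out any 1 of 8 libraries and that of Tap1 any 1 of 6, and both were lost with the replicate block and without both libraries that stood apart.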

How the results depend on the processing

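Under DESeq2 and under DESeq2-type size factors all 90 member tests kept their direction and their side of the threshold. In all other settings 16 values changed sign in at least 1, and 0 of them were called. Against a fold of 1.5 with glmTreat 4 members were higher in Prep-/- M0 and 0 in Prep-/- M1. By the adjusted p alone 2 members were lower in Prep-/- M2 than in M0. With each library left out the members called higher were 7 to 8 in Prep-/- M0, 0 to 2 in M1 and 4 to 6 in M2, the members lower in Prep-/- M2 than in M0 were 1 to 3, and the members with a smaller LPS response were 5 to 6. Those with a smaller IL-4 and IL-13 response were 0 to 2 with each library left out. They were 0 without both libraries that stood apart, where 683 of all genes were called smaller.

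With the replicate block over the libraries compared, Psmb9 in Prep-/- M0 was 0.79 (adjusted p = 0.0501) and the IL-4 and IL-13 difference of Tap1 -0.80 (0.0781), so that 0 members had a smaller IL-4 and IL-13 response. The LPS difference of Tap2 was not called with the block (-0.56, adjusted p = 0.0568), with only the libraries compared and no block (-0.57, 0.0806) or with no filter (-0.55, 0.0613). No other member call changed under these 3 settings, and none in the comparisons where the numbers pair the libraries. Tap2 in Prep+/- M2 against M0 was 0.00844 with only the libraries compared and 0.00995 with the replicate block.

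Other changes of sign came with the filter of 10 CPM (Tap1 in Prep-/- M2 -0.0159, and B2m -0.0127 and Psmb8 -0.00786 in Prep-/- M2 against M0). Without the libraries that stood apart Psmb8 in Prep-/- M0 was -0.04, H2-K1 in Prep-/- M2 against M0 0.0270, and the IL-4 and IL-13 differences of Tapbp and Psmb10 0.23 and 0.22. With each library left out, the values against M0 in Prep-/- M2 ran from -0.0766 to 0.153 for B2m, -0.0138 to 0.290 for H2-D1, -0.257 to 0.0821 for H2-K1 and -0.109 to 0.221 for Psmb8. In Prep+/- M2 they ran from -0.119 to 0.0725 for Psmb8, -0.107 to 0.151 for Psmb9 and -0.0609 to 0.0607 for Tap2. Genotype values ran from -0.0419 to 0.259 for Psmb8 in M0, -0.126 to 0.0344 for Tapbp in M1 and -0.0844 to 0.114 for Tap1 in M2. IL-4 and IL-13 differences ran from -0.138 to 0.260 for Nlrc5, -0.393 to 0.0489 for Psmb10, -0.0875 to 0.236 for Psmb8 and -0.200 to 0.123 for Tapbp. Log2 ratios between genotypes ran from -0.00114 to 0.145 for Psmb10 to Psmb7 in M1 and -0.00493 to 0.518 for Psmb9 to Psmb6 in M2.

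Of the counts over all genes, all 14 moved by over 1.5 times under glmTreat (from 1224 to 273 lower and 1476 to 361 higher in Prep-/- M1). With the 10 CPM filter, which tested 8543 genes, 10 of 18 moved, and with other size factors or no filter 0 of 18. By the adjusted p alone 6 of 14 moved, under DESeq2 1 of 18, and with each library left out 9 of 132. Differences of the IL-4 and IL-13 response fell from 620 to 263 larger and 539 to 313 smaller with only the libraries compared, and the replicate block on those libraries gave 255 and 301. The cause was not tested. The lowest level of a member was 14.2 CPM, and what depth limits was not tested. With 3 libraries a group the permutation tests cannot go below p = 0.1.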

Other observations

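LPS also acted on the genes around the members. Over all genes 16.7% were called higher and 20.9% lower in M1 than in M0 in Prep+/-, and 20.9% and 21.0% in Prep-/-. In M1 against M0 all 3 constitutive catalytic subunits were higher in both genotypes, with log2 fold changes of 1.08, 0.86 and 0.91 for Psmb5, Psmb6 and Psmb7 in Prep+/- and 1.32, 0.89 and 0.96 in Prep-/-. Of 10 proteasome activators and assembly factors 4 were higher in Prep+/- and 0 lower, and 4 were higher and 1 lower in Prep-/-. Psme2 and Psme1, which form the PA28 activator, had log2 fold changes of 2.03 and 1.43 in Prep+/- and 1.30 and 0.79 in Prep-/-. The difference between genotypes was called for Psme1 (-0.63, adjusted p = 0.0378). Without the libraries that stood apart it was not called, and of the 10 factors 0 had a smaller response and 1 a larger. Over all genes 1696 were then called smaller and 2164 larger. Other class I genes were called higher in 9 and lower in 2 of 13 in Prep+/-, and higher in 9 and lower in 3 in Prep-/-. Without the libraries that stood apart the counts in Prep-/- were 8 and 3 for these genes and 4 and 0 for the activators and assembly factors. Over all genes 2514 were then called higher and 2428 lower. H2-T22 rose by 3.30 and 2.26 and H2-T24 by 3.78 and 3.28, while Fcgrt fell in Prep-/- (-3.03), with a called difference between genotypes of -2.12 (adjusted p = 0.00103). In Prep+/- Fcgrt was also lower after LPS, at 113, 73.2 and 75.4 CPM in M0 and 41.6, 51.1 and 46.8 CPM in M1. Irf7 rose by 6.44 in Prep+/- and 4.70 in Prep-/-, and Stat2 by 2.50 and 2.84. Ciita fell in Prep-/-, from 22.8, 13.7 and 5.03 CPM in M0 to 0.104, 0.151 and 0.102 CPM in M1.

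Genes of ER loading were called in M2 of Prep-/- but not of Prep+/- BMDMs. In Prep-/- 7 of 11 were higher than in M0 and 0 lower, against 0 and 0 in Prep+/-. At an unadjusted p below 0.05 edgeR's test gave 2 and 1 in Prep+/-. Over all genes 14.7% were called higher and 15.5% lower in Prep-/-, and 6.09% and 6.77% in Prep+/-. The difference between genotypes itself was called for 4 of the 11 ER genes, Calr (1.04), Erap1 (0.84), Uggt1 (0.80) and Pdia3 (0.57). Of all genes 5.16% were called larger and 4.48% smaller in that test. Without the libraries that stood apart 5 of the 11 were called larger, where 619 of all genes were called larger and 683 smaller. In the transcription factor list 3 genes were higher and 8 lower in Prep-/- M2 than in M0, against 3 and 0 in Prep+/-. Irf7 was -2.35 and Irf9 -1.18 in Prep-/-, with called differences between genotypes of -2.46 and -0.85. Without the libraries that stood apart the counts in Prep-/- were 6 higher and 1 lower for ER loading and 2 higher and 7 lower for the transcription factors. Over all genes 1506 were then called higher and 1773 lower.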
